A study of Mus musculus with 3 samples.

Results

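Hlf, Mecom, Procr, Mllt3, Meis1, Hoxa9, Angpt1, Mycn, Adgrl4 and Gata2 are 10 genes that are read in the field as signs of blood stem cell identity. They were taken by symbol from the gene tables of the libraries, and all 10 were present among the 31053 genes of each table. Each was followed per library, across 14 cell groups and inside the stem and progenitor compartment. Cells came from bone marrow of C57BL/6 mice, enriched for the receptor Kit, and were sequenced with the 10x Genomics 3′ kit, version 2. There were 3 libraries, 1 per group. The unchallenged library is labelled steady state, the library challenged once received 1 Escherichia coli challenge and is labelled 24 h, and the rechallenged library received 2 challenges and is labelled 48 h. The series asks how a first infection bears on blood progenitors and on defence by neutrophils. Its labels do not state from which moment the hours count, whether animals were pooled, or how the bacteria were given. The source label reads neutrophil while the enrichment label names Kit, and the series text speaks of 2 samples and of another treatment, so the label of each sample was followed.

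Blood stem cells sit at the top of the haematopoietic hierarchy in the marrow, mostly at rest, and can be driven into division by infection. Their identity is held by a network of transcription factors that includes Hlf, Mecom, Meis1, Hoxa9 and Gata2, many of them also known from leukaemia when misplaced. Mllt3 is a chromatin reader that helps to keep transcription going, Mycn is a Myc family factor, Procr and Adgrl4 are surface receptors, and Angpt1 is a secreted ligand of the receptor Tek.

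The libraries held 95522747 to 135079828 unique molecular identifiers (UMIs, each marking 1 captured transcript end), and 8286 to 8814 cells each were kept, 25455 in all. Between 84 and 107 barcodes recurred in each pair of libraries among the kept cells. With 1 library per group there was no test between groups. Levels are UMIs per 1000000 UMIs of the cell group (CPM), a count of transcript ends that does not scale with transcript length, and intervals are exact 95% intervals that cover counting error only. A difference between libraries cannot be told apart from a difference between the animals or preparations behind them.

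Stem and progenitor cells, here called HSPC-like, were the cells of clusters 5 and 6 of 23 clusters, which were built without the 10 genes. In cluster 5 all 10 of 10 marker genes of this class, such as Cd34, Ly6a and Kit, were at least 2-fold above other cells, while in cluster 6 only 3 of 10 were. The unnamed cluster 12 had 6 of 10 but was left out, since its top 10 genes held 2 markers of another class and 1 of this. Cluster 6 had 3367, 2077 and 2259.9 CPM of Mpo, a granule gene of early myeloid cells, in the unchallenged library and those challenged once and again, against 344, 221 and 214 in cluster 5. The 8 neutrophil progenitor genes summed to 10762, 8740.2 and 7043 CPM in cluster 6, against 909, 821 and 821 for the 10 HSPC marker genes. With a finer clustering, or with doublet calls kept, the cluster with Cd34 and Otos among its top genes was left unnamed. The HSPC-like label therefore rests on firmer ground in cluster 5, and most results are given there first. Cluster 5 held 503, 667 and 420 cells and cluster 6 held 295, 671 and 473, so cluster 5 made up most of the class without challenge, the clusters were even after 1 challenge, and cluster 6 was the larger after 2. Median mitochondrial UMIs per cluster 5 cell were 2.96%, 2.93% and 4.6%, highest in the rechallenged library, and the part of this in the differences after 2 challenges was not tested. The endothelial genes Ptprb (0 UMIs in all 3 libraries) and Cdh5 (0.131 CPM at most in HSPC-like cells) were at or near 0; vessel cells also express Adgrl4 and Procr. Of the 8 endothelial markers 6, 7 and 7 had UMIs, with a summed level of 61.1, 46.4 and 59.5 CPM in HSPC-like cells, mostly from Pecam1 (38.9, 30.4 and 40.3 CPM). Their part in the results was not tested. The summed level of 8 immature neutrophil genes, all 8 detected in each library, was 3985 CPM in cluster 5 of the unchallenged library against 462 and 518 after challenge. Immature neutrophil-like cells themselves made up 36.4% of the unchallenged library and 10.9% and 10.7% of the others, and the part of this signal in the results below was not tested.

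In cluster 5, Mycn and Angpt1 were lower in both challenged libraries than in the unchallenged one, Hoxa9 was lower after 2 challenges, and Adgrl4 was higher after 2 challenges. Hlf and Mecom were a little lower after 1 challenge and a little higher after 2. Procr, Meis1 and Gata2 had values below the unchallenged library in both challenged ones, by less than 1.6-fold, and Mllt3 hardly differed. A gene is counted as higher or lower here when its CPM, with 10 CPM added on both sides, differed by at least 1.5-fold counting only genes whose UMIs in the compared libraries sum to 100 or more.

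**Figure D1:**
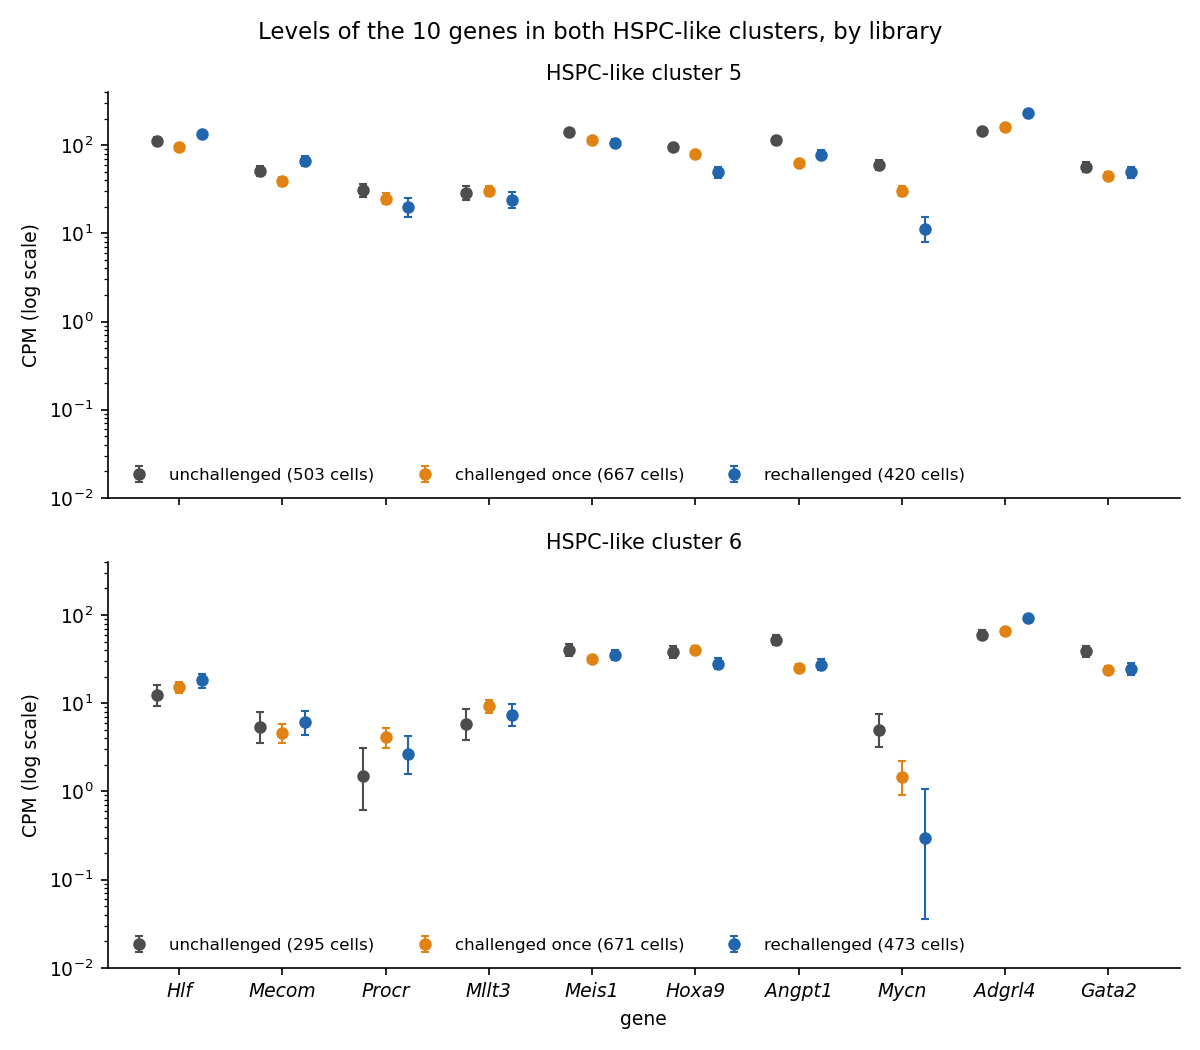
Levels in CPM (log axis) of the 10 genes along the horizontal axis in cluster 5 (top) and cluster 6 (bottom), 1 point per library with its exact Poisson 95% interval. Mycn has the widest spacing between libraries in cluster 5 (59.3, 30 and 11.2 CPM), and Adgrl4 is the gene whose point after 2 challenges lies farthest above the others (231 CPM).

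Mycn, a Myc family factor that acts alongside Myc in the self-renewal of stem cells, stood at 59.3 CPM in unchallenged cluster 5, 30 CPM after 1 challenge and 11.2 CPM after 2 challenges. The 3 libraries were in order of the number of challenges, which is also the order of the labelled hours, and the interval of each ratio lay below 1. The level was 1.98-fold lower after 1 challenge (95% interval 1.65 to 2.37) and 5.31-fold lower after 2 (3.8 to 7.6), from 264, 235 and 40 UMIs. After 2 challenges it was also 2.68-fold lower than after 1 (1.91 to 3.85). In cluster 6 the gene was scarce throughout, at 4.97, 1.45 and 0.296 CPM, the last from 2 UMIs. With each cell thinned at random to 2000 UMIs, so that depth is equal, 10.2%, 7.9% and 2.87% of cluster 5 cells held a Mycn UMI (36.1%, 26.6% and 11.9% unthinned), against 0.813%, 0.696% and 0% of B lineage-like cells. The interval for the last share, from 0 of 130 cells, runs to 2.8%. Median depth was 7802, 11062 and 7685.5 UMIs per cell in cluster 5 and 8128, 6277 and 3596 in B lineage-like cells. The gene lies on the reverse strand at chr12:12936093-12941914 (GRCm38).

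The start site window of Mycn (chr12:12941787-12942086, reverse strand) is shown because this gene had the largest difference of the 10. It runs 5′ to 3′ from 250 bases before the RefSeq start to 50 after it (GRCm38.p6), and capitals mark the letters TGACAG, known as a Meis factor motif, which begin 2 bases past the start.
Mycn: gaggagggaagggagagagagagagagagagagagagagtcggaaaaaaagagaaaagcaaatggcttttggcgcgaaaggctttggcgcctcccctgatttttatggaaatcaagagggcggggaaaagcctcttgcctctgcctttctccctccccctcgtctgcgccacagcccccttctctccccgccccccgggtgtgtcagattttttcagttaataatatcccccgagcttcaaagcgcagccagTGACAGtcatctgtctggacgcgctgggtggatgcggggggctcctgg

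Angpt1, the Tek ligand that is known to favour stem cell rest in the niche and that stem cells also make, had 113, 62.2 and 78 CPM in cluster 5 in the order unchallenged, challenged once and rechallenged. Both challenged libraries were below the unchallenged one and the lowest was the one challenged once. The gene was 1.82-fold lower after 1 challenge (1.6 to 2.06) and 1.45-fold lower after 2 (1.25 to 1.69). Cluster 6 had the same order of libraries at a lower level, 52.1, 24.8 and 27.4 CPM, which is 2.1-fold lower (1.78 to 2.47) and 1.9-fold lower (1.56 to 2.31). Thinned shares in cluster 5 were 18.9%, 11.9% and 18.4% (58.3%, 47.6% and 48.5% unthinned), and no order of the outer libraries is read from them, since the first and last shares do not follow the CPM. At most 0.407% of thinned B lineage-like cells held a UMI of this gene. Its annotated span is chr15:42424723-42676977 on the reverse strand, and the predicted antisense gene Gm17473, which is also in the tables, overlaps it.

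Adgrl4, an adhesion G protein-coupled receptor that vessel cells also express, was the 1 gene of the 10 with a higher level after 2 challenges by the 1.5-fold rule. Cluster 5 had 145 CPM in the unchallenged library, 161 CPM after 1 challenge and 231 CPM after 2. The rechallenged library lay clear of both others, while the interval of the first ratio (1.11, 1.01 to 1.22) came close to 1. After 2 challenges the level was 1.6-fold that of the unchallenged library (1.44 to 1.77) and 1.44-fold that of the library challenged once (1.32 to 1.57). In cluster 6 the values were 59.7, 65.2 and 93 CPM, 1.56-fold higher after 2 challenges (1.35 to 1.8). The thinned share of cluster 5 cells was 24.9%, 29% and 37.6%, against 0.407%, 1.39% and 1.54% of B lineage-like cells (71.3%, 81.1% and 80.9% of cluster 5 cells unthinned). The gene lies at chr3:151437887-151545086 on the forward strand.

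The window of Adgrl4 (chr3:151437632-151437931, forward strand, same source and span) is set against that of Mycn because the 2 genes differed in opposite directions and both windows hold TGACAG. Here the motif, in capitals, occurs at 146 and at 17 bases before the start.
Adgrl4: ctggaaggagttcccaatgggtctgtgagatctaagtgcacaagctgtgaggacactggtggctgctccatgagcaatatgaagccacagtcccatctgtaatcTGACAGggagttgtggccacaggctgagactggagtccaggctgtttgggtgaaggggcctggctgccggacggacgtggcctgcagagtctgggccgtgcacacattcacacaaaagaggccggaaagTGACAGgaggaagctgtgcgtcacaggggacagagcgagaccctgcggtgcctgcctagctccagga

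Hoxa9, a homeobox factor that keeps progenitors immature and binds DNA together with Meis1, stood at 94.6, 78.3 and 49.2 CPM in cluster 5. The levels were in order of the number of challenges, and the interval of each ratio lay below 1. It was 1.21-fold lower after 1 challenge (1.07 to 1.37) and 1.92-fold lower after 2 (1.61 to 2.31). Cluster 6 differed in part, with 38.3, 40.6 and 28 CPM, so its library challenged once was not below the unchallenged one (ratio 1.06, 0.897 to 1.26), and after 2 challenges it was 1.37-fold lower (1.11 to 1.69). Thinned shares in cluster 5 were 18.5%, 14% and 8.85% (54%, 57.4% and 37.1% unthinned), and in B lineage-like cells at most 2.32%. Meis1, the TALE homeobox partner of Hoxa9, had 141, 114 and 105 CPM in cluster 5. It was 1.23-fold lower after 1 challenge (1.11 to 1.37) and 1.33-fold lower after 2 (1.17 to 1.52), smaller ratios than those of Hoxa9 after 2 challenges. Thinned shares of cells with Meis1 were 27.7%, 23.6% and 20.1% (69.2%, 74% and 61% unthinned), against 1.86% at most in B lineage-like cells. Hoxa9 spans chr6:52223100-52231089 and Meis1 chr11:18879817-19018985, both on the reverse strand. The microRNA gene Mir196b lies within the first, and the antisense genes Gm16140 and Gm16141 overlap Meis1.

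The window of Hoxa9 (chr6:52227321-52227620, reverse strand) is shown as that of the other member that was at least 1.5-fold lower after 2 challenges. Capitals mark TGATAG, which is the motif of factors such as Gata2, 17 bases before the RefSeq start.
Hoxa9: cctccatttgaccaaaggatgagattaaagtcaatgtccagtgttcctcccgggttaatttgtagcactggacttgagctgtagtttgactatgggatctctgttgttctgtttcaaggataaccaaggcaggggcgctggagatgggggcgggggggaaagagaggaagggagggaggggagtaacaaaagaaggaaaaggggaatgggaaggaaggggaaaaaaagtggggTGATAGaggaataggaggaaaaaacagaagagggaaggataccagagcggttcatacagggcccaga

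Hlf, a PAR bZIP factor and among the most selective transcripts of stem cells, stood at 112 CPM in unchallenged cluster 5, at 94.7 CPM after 1 challenge and at 132 CPM after 2. The library challenged once was the lowest and the rechallenged library the highest. The ratio to the unchallenged library was 0.85 after 1 challenge (0.757 to 0.954) and 1.18 after 2 (1.04 to 1.34), and between the challenged libraries it was 1.39 (1.24 to 1.56). Mecom, a zinc finger factor needed for stem cell maintenance, had the same order of libraries at 51, 38.9 and 65.4 CPM. It was 1.31-fold lower after 1 challenge (1.1 to 1.56) and 1.28-fold higher after 2 (1.06 to 1.54), and 1.68-fold higher after 2 than after 1 (1.41 to 2). None of the ratios of either gene to the unchallenged library reached 1.5-fold. Thinned shares followed the same order, 22.5%, 17.8% and 25.8% for Hlf and 10.8%, 9.12% and 14.6% for Mecom (55.9%, 60.6% and 62.4%, and 36.7%, 39.3% and 42.4%, unthinned). In B lineage-like cells the thinned share was at most 0.203% for Hlf and 0% for Mecom, which with 130 to 492 cells allows up to 2.8%. Hlf lies at chr11:90336536-90390895 and Mecom at chr3:29951296-30548008, both on the reverse strand, with the antisense gene Mecomos overlapping Mecom. Reads of overlapping antisense genes were taken as the tables give them, since the strand setting of the counting is not given in the sources used here.

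The window at the upstream one of 2 RefSeq starts of Mecom (chr3:30509710-30510009, reverse strand) is printed because Mecom was the member that stood at least 1.5-fold higher after 2 challenges than after 1. Capitals mark TGATAA, which is another form of the same motif, 31 bases before the start.
Mecom: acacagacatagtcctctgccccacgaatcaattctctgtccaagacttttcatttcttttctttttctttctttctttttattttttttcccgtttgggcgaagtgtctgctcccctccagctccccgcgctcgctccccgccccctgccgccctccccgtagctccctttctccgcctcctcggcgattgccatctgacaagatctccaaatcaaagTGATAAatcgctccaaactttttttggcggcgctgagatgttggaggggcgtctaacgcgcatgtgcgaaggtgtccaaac

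RefSeq windows of this kind were at hand for 9 of the 10 genes, and 5 motifs were searched on both strands. The Gata motif was taken as TGATAA with either purine at the last position and either adenine or thymine at the first. The Meis factor motif was taken as TGACAG. The motif of Ets factors was taken as CCGGAAG. The E-box of Myc proteins was taken as CACGTG. The box of the general transcription machinery was taken as TATAAA. No matches overlapped. Among 32851 windows of the same length the Gata letters occurred in 29.8%, the Meis letters in 19.2% and the Ets letters in 8.86%. Meis1 had the Ets letters, and Mllt3 and Mecom also had Gata and Meis letters at their second start. The windows of Hlf, Procr and Gata2 held none of the 5. No member's window held the letters of the last pair, which occurred in 7.15% and 13.6% of windows. A match says only that the letters are there.

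Procr, the endothelial protein C receptor used to sort stem cells, was the scarcest receptor of the set at 30.6, 24.6 and 19.8 CPM in cluster 5. The libraries were in falling order, but the interval after 1 challenge (1.24-fold lower, 0.989 to 1.55) held 1, and after 2 challenges the level was 1.54-fold lower (1.15 to 2.08). With the 10 CPM added the last difference stayed under 1.5-fold, and it rests on 71 UMIs. Gata2, a zinc finger factor of stem cells and of the mast cell and megakaryocyte lines, had 56.7, 44.3 and 49.2 CPM. It was 1.28-fold lower after 1 challenge (1.08 to 1.51), while after 2 the interval of the ratio held 1 (1.15-fold lower, 0.946 to 1.4). In cluster 6 Gata2 was lower by more, with 38.7, 23.9 and 24.4 CPM, 1.62-fold (1.34 to 1.94) and 1.58-fold (1.27 to 1.97). Mllt3 had 28.5, 30 and 24 CPM in cluster 5, and both intervals of its ratios held 1 (1.05, 0.843 to 1.31, and 0.842, 0.633 to 1.12). Thinned shares were 5.82%, 6.38% and 3.83% for Procr, 10.2%, 8.97% and 9.57% for Gata2 and 5.22%, 7.9% and 6.94% for Mllt3 (25.3%, 27.7% and 19.3%, 35.9%, 37.3% and 33.4%, and 22.2%, 29.8% and 20.1% unthinned). For Mllt3 the share in B lineage-like cells of the unchallenged library was as high, 5.08%. Procr lies at chr2:155751117-155755471 and Gata2 at chr6:88193891-88207032 on the forward strand, and Mllt3 at chr4:87769925-88033364 on the reverse strand.

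In cluster 5 after 1 challenge, 2 of the 10 genes (Angpt1 and Mycn) were at least 1.5-fold lower and 0 were higher, where 1.37% of all genes were lower and 0.699% higher. After 2 challenges 2 of 10 (Hoxa9 and Mycn) were lower and 1 (Adgrl4) was higher, where 14.7% of all genes were lower and 2.33% higher. The share of members that were lower there is close to the background. The median log2 ratio of the 10 genes was −0.26 after 1 challenge, beside −0.02 for all genes, and −0.28 after 2, beside −0.18. Between the challenged libraries 1 gene (Mecom) was higher after 2 challenges and 1 (Mycn) was lower, where 3.03% of all genes were higher and 14.4% lower.

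For both clusters together, 2 of 10 genes were lower after 1 challenge, where 1.46% of all genes were, and 0 were higher, where 1.25% were. The pair was again Angpt1 (82, 37.6 and 44.9 CPM in the 3 libraries) and Mycn (31.6, 11.2 and 4.07 CPM). After 2 challenges 3 of 10 were lower, Hoxa9 joining them with 65.9, 53.5 and 35.3 CPM, where 7.15% of all genes were lower and 1.63% higher. After 2 challenges against 1, only Mycn was lower, where 9.09% of all genes were and 1.54% were higher. The medians of the 10 genes were −0.47, −0.44 and 0.03, beside 0.00, −0.11 and −0.09 for all genes. Values over both clusters mix a change in how many cells of each cluster a library held with a change in RNA per cell, which cannot be told apart there. With cluster 6 alone, 1 gene (Angpt1) was lower in each challenged library, where 1.55% and 6.2% of all genes were, and 0 were higher, where 1.88% and 2.06% were. The medians of the 10 genes in cluster 6 were −0.01 and −0.05, beside 0.07 and −0.08 for all genes. Only 7 and 6 of the 10 reached 100 UMIs there, and the 10 CPM added draws the values of scarce genes such as Mycn towards 0. In each comparison the counting interval lay below 1 for 4 genes and above 1 for 2. Between the challenged libraries 0 passed in either direction (background 1.45% higher, 9.3% lower). Scaling by the median ratio of all genes instead of by total UMIs moved the comparison of 2 challenges with none by 0.17 on the log2 scale. It turned the small values of Hlf from −0.07 to 0.07 and of Mecom from −0.04 to 0.08, and took Adgrl4 from 0.44 to 0.59, past 1.5-fold. In cluster 5 alone the upward shift was 0.24 for 2 challenges against none, 0.21 for 2 against 1 and 0.03 for 1 against none. The cluster 5 ratios above were not rescaled, so small ones after 2 challenges, such as that of Gata2, depend on this choice.

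**Figure D2:**
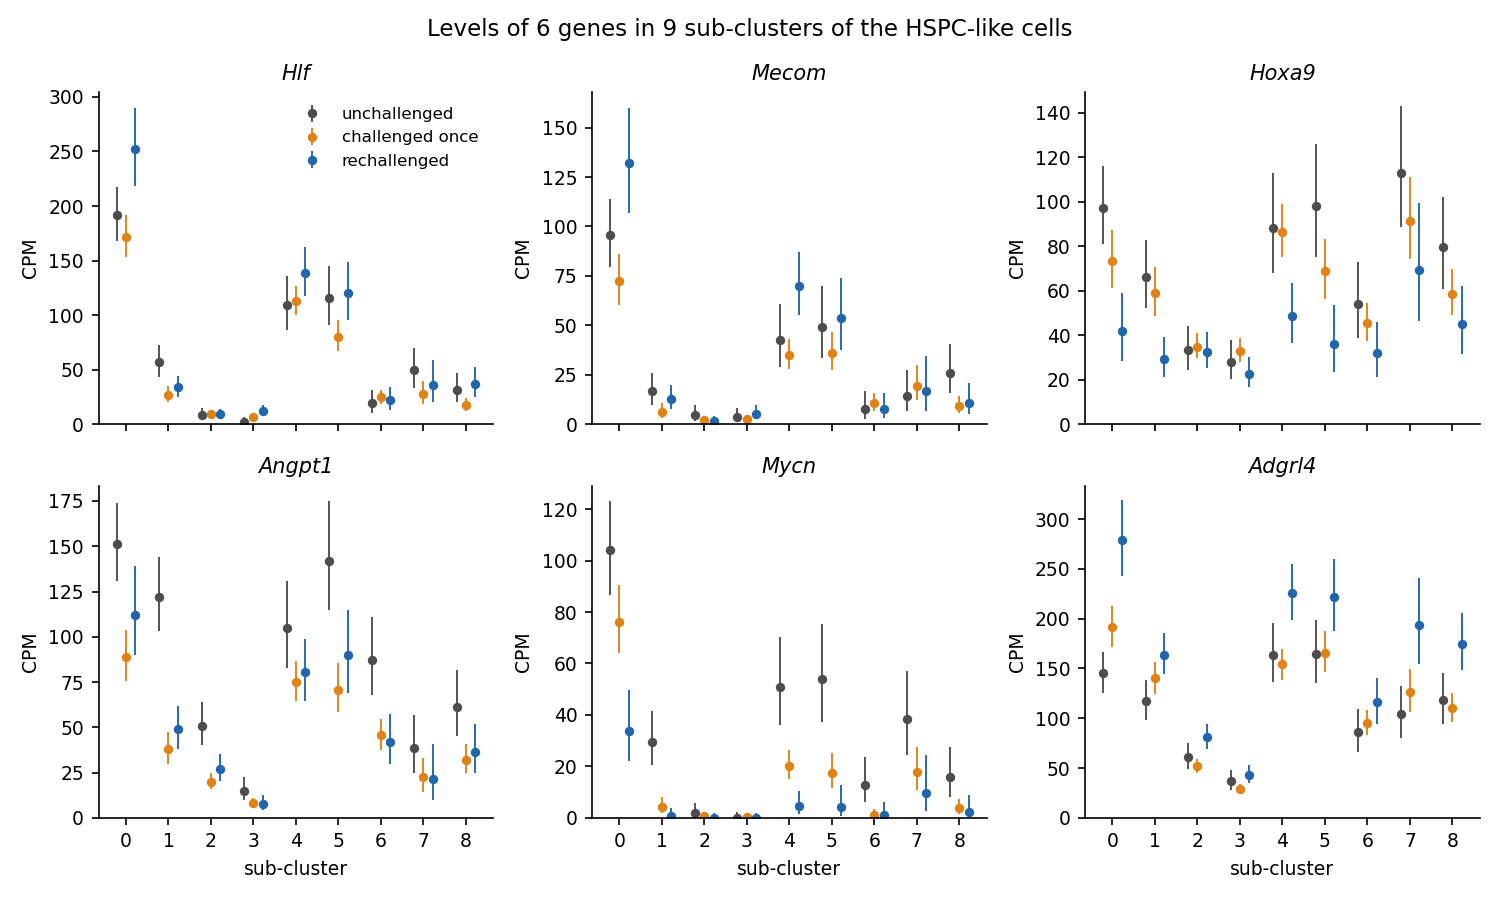
CPM of 6 of the genes (vertical axes from 0) in 9 sub-clusters of the HSPC-like cells (horizontal axis), 1 point per library with its exact Poisson 95% interval. Mycn, Hlf and Angpt1 peak in sub-cluster 0, and the point of the unchallenged library lies above both others for Angpt1 in each of the 9.

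The HSPC-like cells were clustered again by themselves, again without the 10 genes, to see whether the differences held among cells of like state. Of the sub-clusters, 9 were large enough to describe. Sub-cluster 0, led by Tgm2, Socs2, Pdzk1ip1 and Ltb, held 189, 234 and 141 cells, and 7 of 12 stem marker genes were high in it. It was left unnamed, since its top 10 genes held 1 stem marker and 1 marker of a lymphoid list, Ltb. The sub-cluster named stem was sub-cluster 5, with 3 of 12 high. Sub-cluster 0 had the highest mean level of 9 of the 10 genes. The exception was Hoxa9, which was highest in sub-cluster 7 (113, 91.4 and 69.4 CPM), a group with high Dntt, the lymphoid DNA polymerase. For Adgrl4 the first place held in 2 of the 3 libraries. In the unchallenged one sub-clusters 4 and 5 were higher (164 and 165 CPM against 145). In sub-cluster 0 Hlf had 192, 172 and 252 CPM and Mecom 95.9, 72.4 and 132 CPM, so both again had their lowest value after 1 challenge and their highest after 2. Mycn had 104, 76.3 and 33.9 CPM and Angpt1 151, 88.8 and 112 CPM, the unchallenged library being the highest for both. Adgrl4 had 145, 192 and 279 CPM, in the order of the challenges. Procr (66.2, 48.6 and 45.7 CPM) was lower in both challenged libraries, whereas Mllt3 (60.8, 70.1 and 62.7 CPM) and Gata2 (77.9, 64.4 and 77) had nearly the same level with 0 and with 2 challenges.

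Over the 9 sub-clusters, Angpt1 was below the unchallenged library in 9 after 1 challenge and in 9 after 2. The counting interval lay wholly below 1 in 7 and in 5 of the 8 that had at least 50 cells in both libraries. Mycn was below it in 8 and 8, with 0 UMIs in the unchallenged sub-cluster 3, and below the library challenged once in 9 after 2 challenges. Adgrl4 was above the unchallenged library in 9 after 2 challenges, with 7 of 8 intervals above 1. Hoxa9 was below it in 9, with 6 of 8 intervals below 1. These signs and intervals are not calls by the 1.5-fold rule. By that rule, whatever their UMIs, 1 to 6 of the 10 genes were lower after 2 challenges in these 8, and 0 or 1 higher. Of all genes tested 7.96% to 26.8% were lower there, and 4.18% to 5.59% were higher. In sub-cluster 0 it was 2 of 10 beside 25.3% lower, and in sub-cluster 8 it was 6 of 10 beside 21.4%. After 1 challenge 0 to 5 of the 10 were lower, where 1.79% to 5.27% of all genes were. The sub-clusters of a group come from the same 1 library, so they are not replicates. Hlf after 2 challenges was above its level after 1 in 7 of 9, and Mecom in 6. Hlf after 1 challenge was below the unchallenged library in only 5 of 9 and above it in 4. After 2 challenges the intervals against the unchallenged library were below 1 for Hlf in sub-cluster 1 (ratio 0.599, 0.406 to 0.879) and for Mecom in sub-cluster 8 (0.419, 0.168 to 0.962, from 9 and 20 UMIs), the other way from cluster 5 as a whole. In sub-cluster 1, led by Hist1h2bc, Osm and Ccl9, Angpt1 had 122, 37.8 and 48.9 CPM and Mycn 29.6, 4.09 and 0.679 CPM, the last from 1 UMI.

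**Figure D3:**
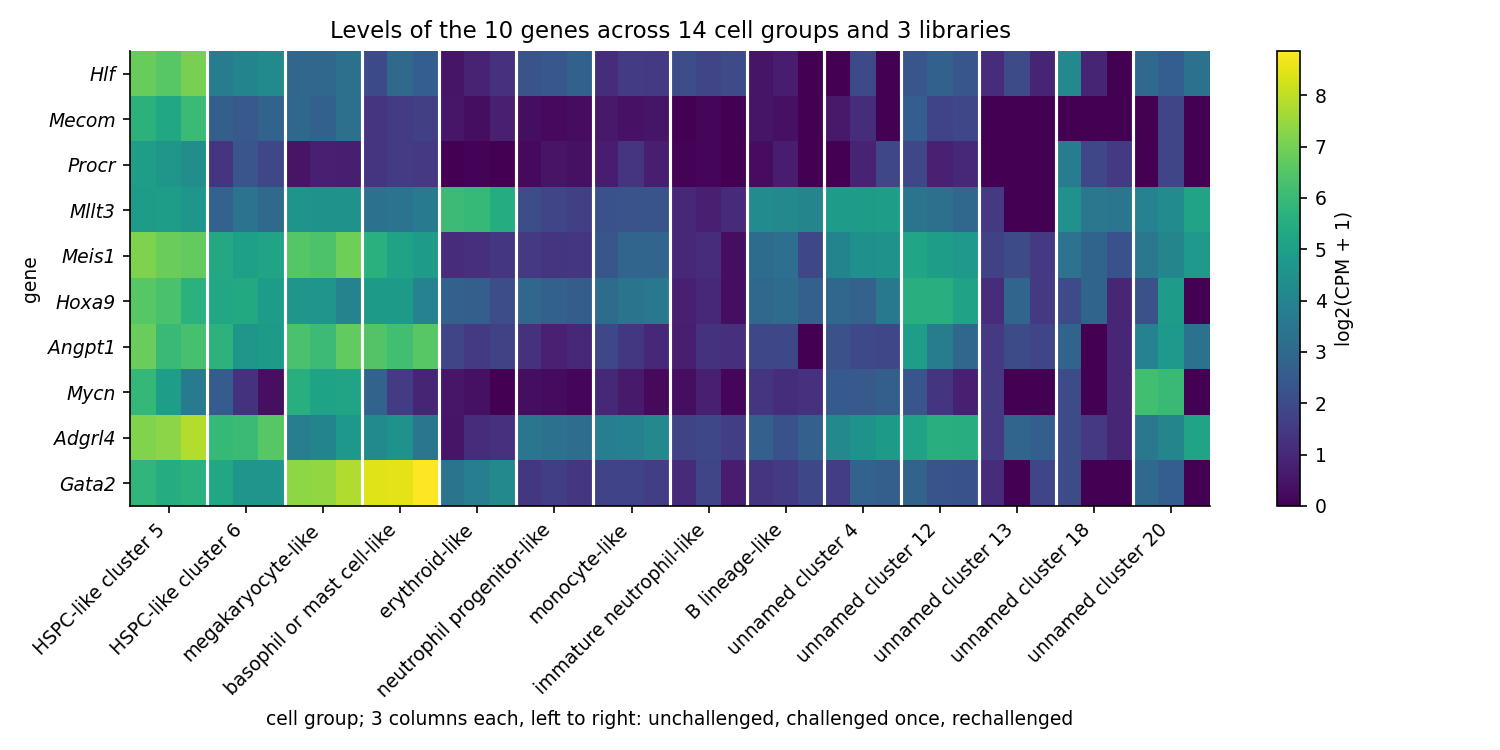
Colour gives log2(CPM + 1) of the 10 genes (rows) in 14 cell groups with at least 50 cells in every library (3 columns each, in the order unchallenged, challenged once, rechallenged). The row of Hlf is bright in cluster 5 alone (113 CPM as the mean of 3 libraries), while the row of Gata2 is brightest in basophil or mast cell-like cells (390 CPM).

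Across the 14 groups, 5 of the genes had their highest mean level in cluster 5 with no overlap between its libraries and those of the next group. Hlf averaged 113 ± 18.6 CPM there (SD over the 3 libraries, n = 3, which includes any effect of challenge), and the next group, cluster 6, had 15.2 ± 2.88. Mecom averaged 51.8 ± 13.2 CPM, ahead of megakaryocyte-like cells at 7.08 ± 1.47. Hoxa9 (74 ± 23 CPM) and Adgrl4 (179 ± 45.9 CPM) were followed by the unnamed cluster 12 (41.9 ± 6.97) and by cluster 6 (72.6 ± 17.9). Procr averaged 25 ± 5.38 CPM, ahead of the unnamed cluster 18 with 5.63 ± 5.85. Meis1 at 120 ± 18.3 CPM in cluster 5 overlapped with 97.1 ± 19 in megakaryocyte-like cells, so that these neighbours were not separated.

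The other genes were not highest in cluster 5, or shared the top. Gata2 had 390 ± 65.9 CPM in basophil or mast cell-like cells and 187 ± 32 in megakaryocyte-like cells, against 50 ± 6.22 in cluster 5. Mllt3 had 56.7 ± 11.7 CPM in erythroid-like cells, 29.1 ± 0.927 in the unnamed cluster 4 and 27.5 ± 3.11 in cluster 5. Angpt1 did not differ beyond its spread among basophil or mast cell-like cells (84.5 ± 11.5), cluster 5 (84.4 ± 26.1) and megakaryocyte-like cells (84.2 ± 20). Mycn likewise overlapped between megakaryocyte-like cells (38.8 ± 7.12) and cluster 5 (33.5 ± 24.3). Its highest mean was in the unnamed cluster 20 (44.9 ± 39.1), a group of 51 to 65 cells per library led by Tcrg-C1, Gata3 and Bcl11b, where it had 71.7, 62.9 and 0 CPM. That 0 came from 112425 UMIs in all, and its exact interval runs to 32.8 CPM.

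HSPC-like cells held most of the transcripts of only some of these genes. They gave 76.8%, 82% and 82.1% of all Mecom UMIs of the kept cells and 66.2%, 74.4% and 65.1% of those of Hlf, but only 8.72%, 19.8% and 20% of Mllt3 and 20.7%, 23.4% and 15.1% of Gata2. HSPC-like cells were 9.05%, 16% and 10.8% of the kept cells. Adgrl4 over all kept cells was 14.5, 26.7 and 26.5 CPM, and Hoxa9 was 11.6, 17.8 and 11 CPM. Mycn was 5.8, 4.52 and 1.85 CPM there, 3.14-fold lower after 2 challenges (2.65 to 3.75), and Mllt3 was 16, 15 and 7.56 CPM, 2.11-fold lower (1.93 to 2.31). Over all kept cells 0 of the 10 passed 1.5-fold in any of the 3 comparisons once 10 CPM was added, an amount that is large beside levels of this size. Without it the ratio of Adgrl4 was 1.84 after 1 challenge (1.73 to 1.95) and 1.82 after 2 (1.71 to 1.94). Of all genes there, 2.01% were higher and 1.53% lower after 1 challenge, 2.32% and 4% after 2, and 1.45% and 8.44% after 2 against 1.

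**Figure D4:**
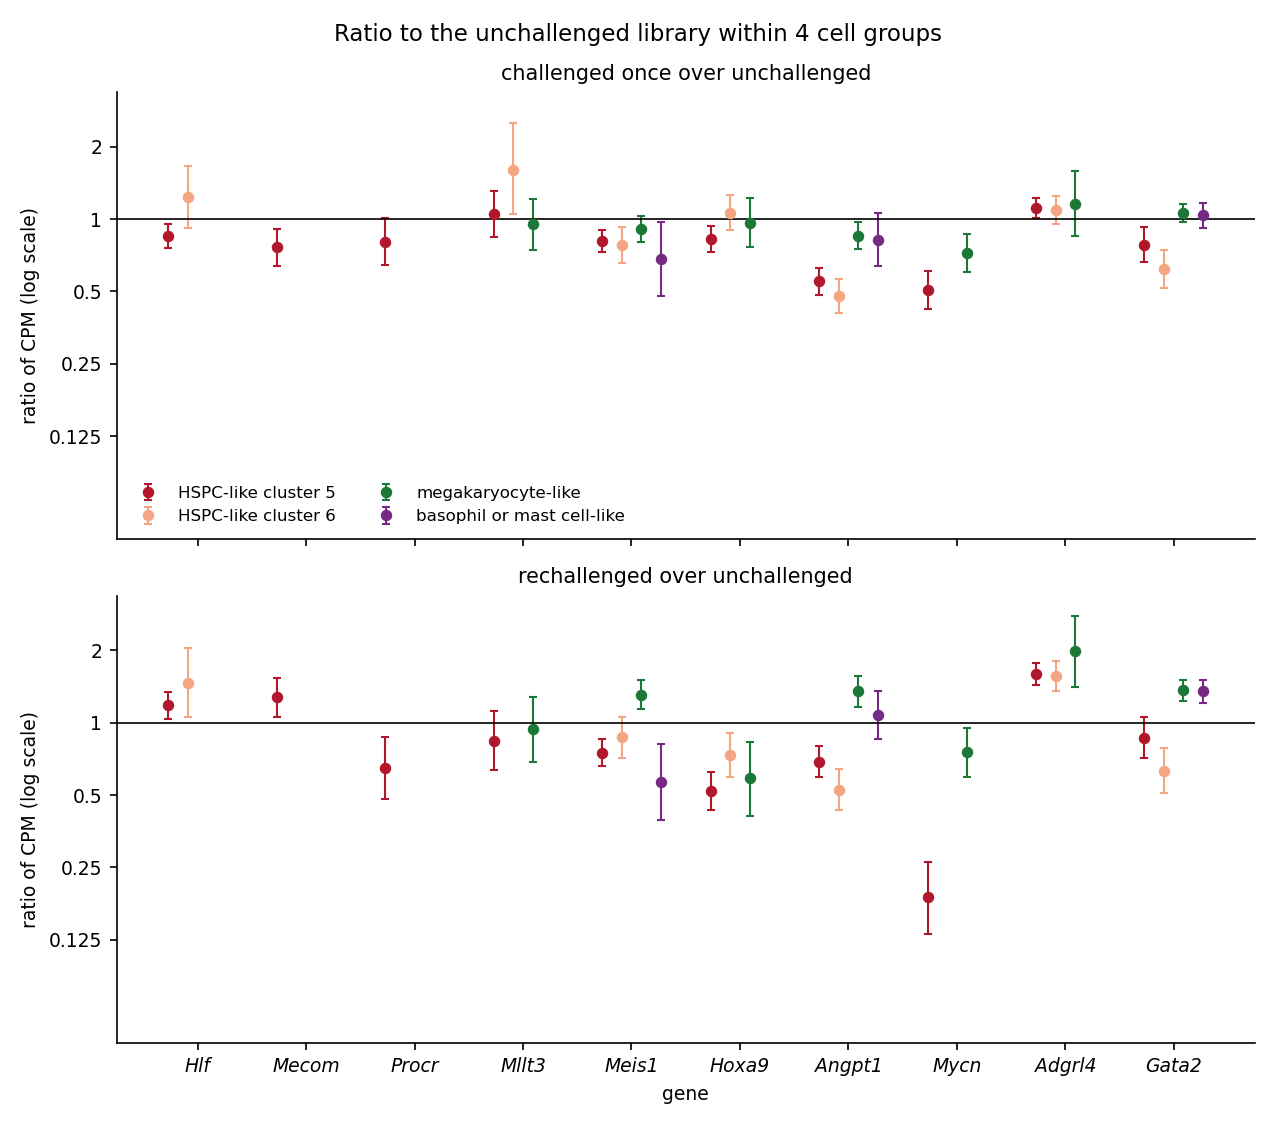
Ratio of CPM to the unchallenged library (log axis, line at 1) for the 10 genes in 4 cell groups, after 1 challenge (top) and after 2 (bottom), with exact 95% counting intervals. Genes under 100 UMIs over a pair have no point. In the lower panel Angpt1, Meis1 and Gata2 lie below 1 in the HSPC-like clusters and above 1 in megakaryocyte-like cells (1.35, 1.31 and 1.37). The interval of Gata2 in cluster 5 holds 1 there.

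Some of the genes had another order of libraries in other lineages that express them. In megakaryocyte-like cells (391, 573 and 368 cells) Angpt1 had 78.9, 67.4 and 106 CPM and was 1.35-fold higher after 2 challenges (1.16 to 1.56). Meis1 (90.6, 82.3 and 119 CPM) was 1.31-fold higher (1.14 to 1.5), and Gata2 (163, 173 and 223 CPM) 1.37-fold higher (1.23 to 1.51). These 3 genes were highest in the rechallenged library in this lineage, while in cluster 5 they were highest in the unchallenged one. For Gata2 the interval of the cluster 5 ratio after 2 challenges held 1, so no opposite difference is read for it. Adgrl4, at 12.8, 14.9 and 25.4 CPM, was higher in both kinds of cell, by 1.98-fold here (1.41 to 2.78), the 1 gene of 10 that passed the rule, where 2.91% of all genes were higher and 12.1% lower. Hoxa9 was lower in both, with 24.9, 24 and 14.7 CPM. Mycn had 47, 34 and 35.4 CPM, a ratio of 0.754 after 2 challenges (0.596 to 0.949). Whether these ratios differ between lineages was not tested.

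In basophil or mast cell-like cells (117, 172 and 279 cells) Gata2 had 346, 359 and 466 CPM and was 1.35-fold higher after 2 challenges (1.21 to 1.51), while Meis1 had 49, 33.4 and 27.9 CPM. Erythroid-like cells, with the highest Mllt3, had 66.6, 59.8 and 43.9 CPM of it, a ratio of 0.659 after 2 challenges (0.561 to 0.77). Unnamed cluster 12, led by Cox6a2, Siglech, Ccr9 and Flt3, had 29.4, 12.3 and 6.82 CPM of Angpt1, a ratio of 0.419 after 1 challenge (0.297 to 0.59) and 0.232 after 2 (0.145 to 0.361). Adgrl4 in that cluster had 33.3, 46.9 and 44.6 CPM, so there the library challenged once was already higher.

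Free RNA in droplets gives every cell type a low level of foreign transcripts. The level in B lineage-like and immature neutrophil-like cells was read as a background. Whether these cells also express some of the genes was not tested, so the level is only an upper limit for free RNA. In B lineage-like and immature neutrophil-like cells the highest level in any library was 0.428 CPM for Mecom, 0.619 for Procr, 1.5 for Mycn, 2.79 for Angpt1 and Gata2, 3.42 for Hlf and 5.58 for Adgrl4. Hoxa9 reached 7.74 CPM and Meis1 8.36. All of these were far under the levels in cluster 5, whereas Mllt3 reached 18.4 CPM and was not particular to progenitors.

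Cells with UMIs of several of the genes at once were counted after thinning to 2000 UMIs per cell, which left out 6, 16 and 15 of the HSPC-like cells. At least 2 of the 10 genes were seen in 31.7% of unchallenged HSPC-like cells (28.5 to 35.1), in 24.4% after 1 challenge (22.1 to 26.8) and in 24.7% after 2 (21.9 to 27.7). Within cluster 5 the shares were 43.4%, 40.3% and 42.3%, and within cluster 6 they were 11.9%, 8.58% and 8.7%. With all UMIs Hlf, Mecom and Procr were seen together in 39, 53 and 20 cluster 5 cells, or 7.75%, 7.95% and 4.76%, at unequal depth. At 2000 UMIs per cell only 5, 2 and 1 such cells were left, or 1%, 0.304% and 0.239%, with overlapping intervals (0.327 to 2.33, 0.0368 to 1.09 and 0.00606 to 1.33). In unchallenged cluster 5, Hlf was seen in 38.9% of the 54 cells with Mecom (25.9 to 53.1) and in 20.5% of the 444 without it (16.8 to 24.6). After 2 challenges the values were 41% and 23.2%, and after 1 challenge 18.3% and 17.7%, where the intervals of the 2 shares overlapped widely. Adgrl4 was about as frequent with Hlf as without it, at 24.1% and 25.1% of unchallenged cells.

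Over 49 points, each a cell group in 1 library, the genes with the most similar pattern of log2(CPM + 10) among 10843 were listed as a description. Hlf was closest to Nkx2-3 (Pearson r 0.94) and Col4a1 (0.93), and Mecom to Crispld1 (0.95) and Nkx2-3 (0.95). Procr had the same companions at lower values, Col4a1 and Nkx2-3 (both 0.81). Angpt1 and Meis1 shared Spns2 as nearest gene (0.94 and 0.91), the second of each being Ccdc8 (0.92) and Angpt1 itself (0.89). Hoxa9 and Adgrl4 shared Mdfi (both 0.88), followed by Afap1l1 (0.88) and Otos (0.87). Gata2 was closest to Slc22a3 and Syde2 (both 0.91), Mycn to Pard3b and Tmem158 (both 0.85) and Mllt3 to Cyhr1 (0.87) and Rfxap (0.86). Among the 10 themselves Hlf and Mecom had r 0.91, while Mllt3 had 0.15 to 0.34 with the other genes. The points share libraries, depth and clusters.

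Related genes were read from 8 lists, which together hold 82 genes, in both HSPC-like clusters together. Their counts stand beside 1.46% of all genes lower and 1.25% higher after 1 challenge, 7.15% and 1.63% after 2, and 9.09% and 1.54% after 2 against 1, so that 1 lower gene of 8 after 2 challenges is near the background. Of 15 stem marker genes 7 could be measured. After 1 challenge 1 was lower, Pdzk1ip1, with 8.71 against 19.7 CPM. Taken alone, cluster 5 had 0 of 7 lower after 1 challenge and cluster 6 had 0 of 2, where 1.37% and 1.55% of all genes were. The call for Pdzk1ip1 thus appeared only with the clusters pooled. After 2 challenges 1 of 7 stem marker genes was lower over both clusters. Cluster 5 alone had 2 of 6 lower and cluster 6 alone 0 of 2, where 14.7% and 6.2% of all genes were. The pooled medians of −0.35 and −0.37 on the log2 scale lay near those of the 10 genes. Of 12 stem cell transcription factors 9 were measured after 1 challenge, with none past 1.5-fold and a median of −0.15. After 2 challenges 1 of 8 was lower, the bHLH factor Lyl1, with 73.9 against 164 CPM. Other Hox and TALE genes had 0 of 7 and 0 of 5 past it after 1 and 2 challenges.

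The same shares of all genes apply to the partners of the other members. Of the Tie receptor list only Tie1 could be measured, at 10.2, 6.05 and 10.1 CPM, so the receptor of Angpt1 itself was under the 100 UMI limit. None of 10 measured partners of Mllt3, such as Dot1l and other elongation genes, passed 1.5-fold in either challenged library. In the Myc network Mxd4, an antagonist of Myc, was the 1 lower gene, at 47 CPM after 1 challenge and 49.1 after 2 against 79.5. Taken alone, cluster 6 had Mxd4 lower after 1 challenge only. Cluster 5 had 0 of 8 lower after 1 challenge and 2 of 8 after 2, where 14.7% of all genes were. Mxd4 was not among them. Of the Gata partners the corepressor Cbfa2t3 was lower after 1 challenge (79.7 against 138 CPM) and 0 of 5 after 2. Of the quiescence genes Txnip was lower in both, at 75.1 and 61 against 136 CPM, and Socs2 after 2 challenges, at 2.71 against 10.6. Within cluster 5 alone Txnip and Socs2 were lower after 2 challenges, where 14.7% of all genes were, and neither was after 1. Within cluster 6 alone neither was counted as lower. Over both clusters together the cell cycle inhibitor Cdkn1b was the 1 gene of these lists that was higher, at 33.4 CPM after 2 challenges against 14.8 after 1. Cluster 5 alone had more in that comparison, where 3.03% of all genes were higher. Higher there were 1 of 7 stem marker genes and 2 of 7 stem transcription factors. So were 1 of 8 Myc network genes and 2 of 8 quiescence genes, Cdkn1b among the latter. After 2 challenges against none 1 of 7 quiescence genes was higher in cluster 5 (2.33% of all genes).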

How the data were processed

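Single-cell libraries were read from the deposited matrices, which hold whole counts of UMIs per gene and cell barcode and were checked to do so. Cell Ranger 3.0.0 and the build mm10 stand in the submitters' processing notes. The counting annotation is not given in the sources used here. Barcodes under 500 UMIs, under 300 genes or above 10% mitochondrial UMIs were dropped. Scrublet doublets were called per library with scanpy 1.11.5 (expected 6%), and 3% to 4.43% were removed. The 3 libraries were clustered together, uncorrected, by leidenalg 0.10.2 (resolution 1, 2000 variable genes, 30 components, 15 neighbours), leaving out the 10 genes and cell cycle, interferon, immediate early, ribosomal, mitochondrial and sex-linked genes. Clusters were named from 15 marker lists when at least 3 markers were 2-fold above other cells. A cluster stayed unnamed if its top 10 genes held markers of another list, as many as or more than of its own. So did a cluster under 20 cells, or one of low depth with none of its own markers among its top 10 genes. HSPC-like cells were clustered again after centring each library, a step chosen after seeing that libraries otherwise split.

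Counts were summed per group and library and given as CPM. Levels have exact Poisson, shares Clopper-Pearson and ratios exact conditional binomial 95% intervals. Log2 ratios add 10 CPM. No replicate exists, so no test across genes was run. The scripts were tested on simulated data. Alternatives were another pseudocount, scaling, cell filter, doublet handling, clustering, depth and cluster. Named genes were the 10 genes, up to 4 genes per list with the largest absolute ratio and the 2 genes most alike to each member. Of the genes this rule takes, 2 are not reported here. The members and lists were chosen with earlier results of these data known. Positions come from GENCODE M21 and start site windows from RefSeq on GRCm38. Other tools were anndata 0.12.19, numpy 2.4.6, scipy 1.17.1 and matplotlib 3.10.9.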

Additional observations from a re-analysis of the deposited data

Results flagged for a closer look

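Several of the 10 genes had opposite differences from the unchallenged library in HSPC-like cells and in another lineage, with counting intervals on opposite sides of 1 and 1 library per group. These contrasts between lineages were not tested. The HSPC-like values here are over both clusters together, so they mix the share of cells from each cluster with RNA per cell. Values are log2 ratios with 10 CPM added. After 1 challenge Meis1 was 0.21 in monocyte-like cells against −0.52 in HSPC-like cells, and Gata2 was 0.22 in erythroid-like cells against −0.49. The Meis1 levels in monocyte-like cells, 4.17 and 6.35 CPM, lay under the 8.36 CPM read as background for this gene, so no difference in expression is read from them. That background may hold expression of the cells it was read in as well as free RNA.

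After 2 challenges Meis1 was 0.35 in megakaryocyte-like and 0.21 in monocyte-like cells against −0.52 in HSPC-like cells. Gata2 was 0.42 in basophil or mast cell-like, 0.47 in erythroid-like and 0.43 in megakaryocyte-like cells against −0.42. That last value is for the pooled clusters. In cluster 5 alone the interval of the Gata2 ratio after 2 challenges held 1, so no opposite difference is read there. In cluster 6 alone it lay below 1. Angpt1 was 0.39 in megakaryocyte-like cells against −0.74, and Hoxa9 was 0.22 in monocyte-like cells against −0.74. Adgrl4 went the other way, with −0.17 in neutrophil progenitor-like cells against 0.44. In monocyte-like cells the levels after 2 challenges were 6.36 CPM for Meis1, also under its background, and 10.7 CPM for Hoxa9, against 7.73 unchallenged and a background of up to 7.74, so no direction is read from either. Adgrl4 in neutrophil progenitor-like cells stood at 10.3, 9.17 and 7.99 CPM.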

How the results depend on the processing

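No paired analysis was possible because each group has 1 library, and for the same reason no library could be left out. The median log2 ratio of the 10 genes after 1 challenge, −0.47 over both HSPC-like clusters, was −0.26 at Leiden resolution 2, −0.28 as a mean over sub-clusters, −0.26 in cluster 5 alone and −0.01 in cluster 6 alone. The splits by cluster were chosen after seeing the data. In cluster 6 only 7 of the 10 genes reached 100 UMIs for 1 challenge against none, and 6 for 2 against none. Genes at least 1.5-fold lower after 1 challenge numbered 4 with 1 CPM added in place of 10 and 1 in cluster 6. After 2 challenges cluster 6 alone gave a median of −0.05 and 1 lower gene. For 2 challenges against 1 the count of lower genes was 2 with clustering on all variable genes and 0 with scaling by the median ratio, with the mean over sub-clusters and in cluster 6. At least 2 of the 10 genes were seen in 85.3%, 88.8% and 79.1% of HSPC-like cells with all UMIs and in 56.7%, 43.6% and 45.3% at 4000 UMIs per cell. The sign of a gene's ratio was the same in 91, 92 and 97 of 110 values for the 3 comparisons, which include 11 alternatives for each gene. Over them Mycn after 2 challenges ranged from −2.69 to −0.54, Angpt1 after 1 from −1.11 to −0.72, Hoxa9 after 2 from −0.98 to −0.34 and Adgrl4 after 2 from 0.30 to 0.71. Hlf after 1 challenge ranged from −0.52 to 0.17, so its direction depends on the cells taken. The smallest counts behind a cluster 5 level were 40 UMIs for Mycn and 71 for Procr.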
